A study of Drosophila melanogaster with 4 samples.

Results

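Transcripts of 5 genes of the male reproductive tract were followed in head RNA of Drosophila melanogaster males. betaTub85D, Mst77F, Mst89B and twe were taken as testis genes, and CG9997 as a gene of the seminal fluid, without a claim that each is confined to that organ. They were 5 of the 6793 genes spotted on the slide, taken by their current symbol, and they had been selected on their centred log2 ratios on these same arrays. Those ratios are therefore given as a description, with no test. The question asked was whether the 5 genes moved together on any array. Body tissue carried unequally into the pools of heads compared on an array could give this. Tissue carried equally into both pools would not show in a ratio between them.

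Each of 4 two-colour cDNA microarrays, replicates 1 to 4 of the NF-NF control, held a pool of heads labelled Cy5 and a pool labelled Cy3. Both pools came from unmated, untreated wild type Oregon-R males aged 3 to 4 days, kept on normal food (NF), and so no array had a treated side. The labels give 12 hrs in the treatment vessel for each pool except the Cy3 pool of replicate 1, for which they give 6 hrs, a stay that no other source used here mentions. The methods place the NF-NF control at the start of the study's time series. Frozen flies were shaken, and heads were separated from bodies on sieves before RNA was extracted from pooled heads. A positive log2 ratio here means more signal from the Cy5 side, as labelled. The labels give 1 orientation of the dyes for all 4 arrays, while the study's methods speak of dye swaps within the set, so the direction is not settled for any array. Turning an array would turn all 5 genes on it at once and would leave unchanged which genes lay on the same side.

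In males the germline cells of the testis divide, pass through meiosis and are reshaped into sperm, with chromatin that is packed first with histones and at the end with small basic proteins. Many genes are transcribed almost exclusively in these cells. The accessory glands and ducts add seminal proteins that are transferred at mating. The head holds neither organ, so RNA of these genes in a head pool is of interest as a possible trace of other tissue.

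The slide carried 13824 clones, each spotted as an adjacent pair, and the ratio of a clone is the mean of its pair. Values were centred by subtracting the median of the array, which was 0.14, 0.00050, 0.079 and -0.70 as deposited on replicates 1 to 4. After the authors' filters 8429, 8414 and 7966 of the 27648 spots kept a value on replicates 1 to 3, and 2240 on replicate 4. A clone without a value may have been dim, saturated or uneven, and the filters do not say which. The 5th to 95th percentile of all centred clones ran between -0.63 and 0.42 on replicate 1, between -0.39 and 0.29 on replicate 2, between -0.62 and 0.51 on replicate 3 and between -0.48 and 0.71 on replicate 4. The duplicate spots of a clone differed by a median of 0.102 to 0.126 over the 4 arrays. Across clones, which are not independent, replicates 1 and 3 correlated with r = 0.714 and replicates 1 and 2 with r = 0.430, while replicate 2 correlated with replicates 3 and 4 with r = 0.355 and 0.352. Replicate 4 had r = -0.0138 with replicate 1 and 0.0133 with replicate 3.

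The genes stood on the slide as 6 clones, since Mst77F had 2 clones and the others had 1 each. One of the Mst77F clones had no value on any array, so each gene was read from a single clone. CG9997 alone had a value on all 4 arrays, and the others had values on 3. By the RefSeq gene table for Release 6 of the genome, betaTub85D, Mst89B and CG9997 lie on chromosome arm 3R, Mst77F on 3L and twe on 2L. Mst77F lies inside Pka-R1, Mst89B overlaps Mat89Ba and twe overlaps EndoGI. Mat89Ba and EndoGI had spots without values. The measured clone of Pka-R1, a regulatory subunit of protein kinase A, read -0.40, -0.27, -0.55 and -0.04 on replicates 1 to 4, below the array median each time. Whether a double-stranded cDNA spot also picks up RNA of an overlapping gene was not tested.

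betaTub85D encodes the beta-tubulin that the male germline uses for meiotic spindles and sperm tails. Its centred log2 ratio was -0.52 on replicate 1, 0.54 on replicate 2 and -0.30 on replicate 4, and replicate 3 had no value. It was thus among the highest clones of replicate 2, at rank 44 of 4207, and on the low side of the other arrays, at percentile 8.59 of replicate 1 and 15.1 of replicate 4. The mean was -0.09 ± 0.56 (SD, n = 3), so the spread between arrays exceeded the mean. The duplicate spots lay within 0.081 to 0.182 of each other, which is much less than the range of 1.06 between arrays.

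Mst77F encodes a basic protein of condensing sperm chromatin. Its centred log2 ratio was -0.00025 on replicate 1, 0.68 on replicate 2 and 1.60 on replicate 4, with no value on replicate 3. The value of replicate 4, a ratio of 3.02 between the pools, placed it at rank 7 of 1120 clones, and that of replicate 2 at rank 28 of 4207. On replicate 1 it was at the median, although its spots there read 0.399 and -0.118 as deposited, a difference of 0.517 that lay beyond the 95th percentile of duplicate differences on that array, 0.395. The mean was 0.76 ± 0.80 (SD, n = 3).

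Mst89B, named as a male-specific transcript, had centred log2 ratios of 0.02, 0.13 and 0.22 on replicates 1 to 3 and no value on replicate 4. These lay at percentiles 52.2, 78.0 and 70.8, inside the bulk of the clones of each array. The mean was 0.12 ± 0.10 (SD, n = 3). twe encodes a Cdc25-type phosphatase that male germline cells need to enter the meiotic divisions. Its centred log2 ratios were 0.41, 0.22 and 0.09 on replicates 1 to 3, again with no value on replicate 4, and their mean was 0.24 ± 0.16 (SD, n = 3). It was at percentile 94.7 on replicate 1 and 58.0 on replicate 3. Both genes were above the median on each array with a value, but the distance stayed within the 5th to 95th percentile of all clones in each case.

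CG9997 encodes a serine protease homologue of the seminal fluid that acts in the network of Sex Peptide, the male peptide that changes female behaviour after mating. Its centred log2 ratio was 0.28 on replicate 1, 0.0025 on replicate 2, 2.43 on replicate 3 and -0.81 on replicate 4. It was therefore at rank 3 from the top of 3988 clones on replicate 3 and at rank 6 from the bottom of 1120 clones on replicate 4. The value on replicate 3, a ratio of 5.39, came from 1 spot, because its duplicate had no value. Only 10 of 3988 clones on that array had 1 spot. On replicate 4 the duplicate spots read -1.125 and -1.881 as deposited, and their difference of 0.756 exceeded the 95th percentile of that array, 0.496. The mean was 0.48 ± 1.38 (SD, n = 4), and -0.17 without replicate 3.

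**Figure D1:**
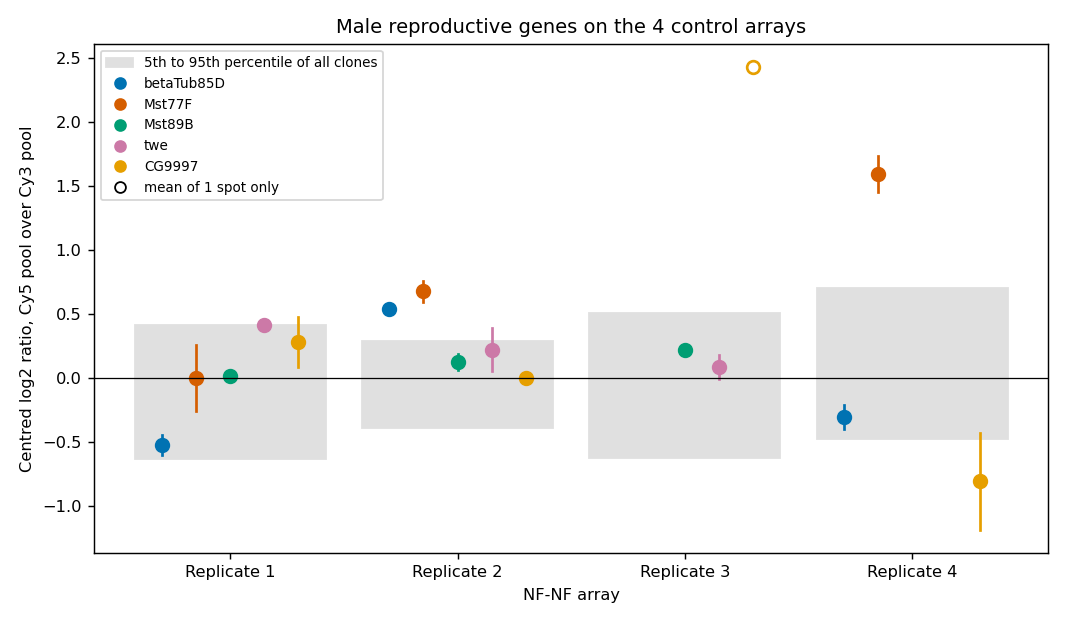
Centred log2 ratio, Cy5 pool over Cy3 pool, of 5 male reproductive genes on each of the 4 NF-NF arrays. Points are means of duplicate spots, vertical lines join the duplicate spots, the open point is a single spot, and grey boxes span the 5th to 95th percentile of all clones on the array. On replicate 2 all 5 genes lie at or above 0, and on replicate 4 Mst77F lies at 1.60 while CG9997 lies at -0.81.

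The genes can be compared within an array, where dye orientation and centring are shared. On replicate 1, 3 of 5 were above the array median, between -0.52 for betaTub85D and 0.41 for twe. On replicate 2, 5 of 5 were above it, between 0.0025 for CG9997 and 0.68 for Mst77F. On replicate 3, 3 of 3 were above it, between 0.09 for twe and 2.43 for CG9997. On replicate 4, 1 of 3 was above it. Among the 2406 genes measured on 3 or more arrays the share above the median was 48.5%, 49.3%, 49.3% and 46.8% on replicates 1 to 4. The genes shared a side on replicates 2 and 3 and not on replicates 1 and 4, which holds for either dye orientation. On replicate 2 CG9997 lay nearer to the median, at 0.0025, than its duplicate spots lay to each other, at 0.028.

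Sharing a side did not mean sharing a size. On replicate 3 CG9997 exceeded twe by 2.34 and Mst89B by 2.21 on the log2 scale, and the other 2 measured genes were within 0.13 of each other. On replicate 4, the array with the fewest values, Mst77F exceeded betaTub85D by 1.90 and CG9997 by 2.40. The spread was smallest on replicate 2, at 0.68. The number of genes beyond 2-fold in either direction was 0 of 5 on replicates 1 and 2 and 1 of 3 on replicates 3 and 4, and the background share of all clones beyond 2-fold was 0.925%, 0.404%, 1.05% and 2.50%. The gene beyond 2-fold was CG9997 on replicate 3 and Mst77F on replicate 4. No pair of the 3 genes measured on replicate 4 was within the median duplicate difference of 0.126.

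**Figure D2:**
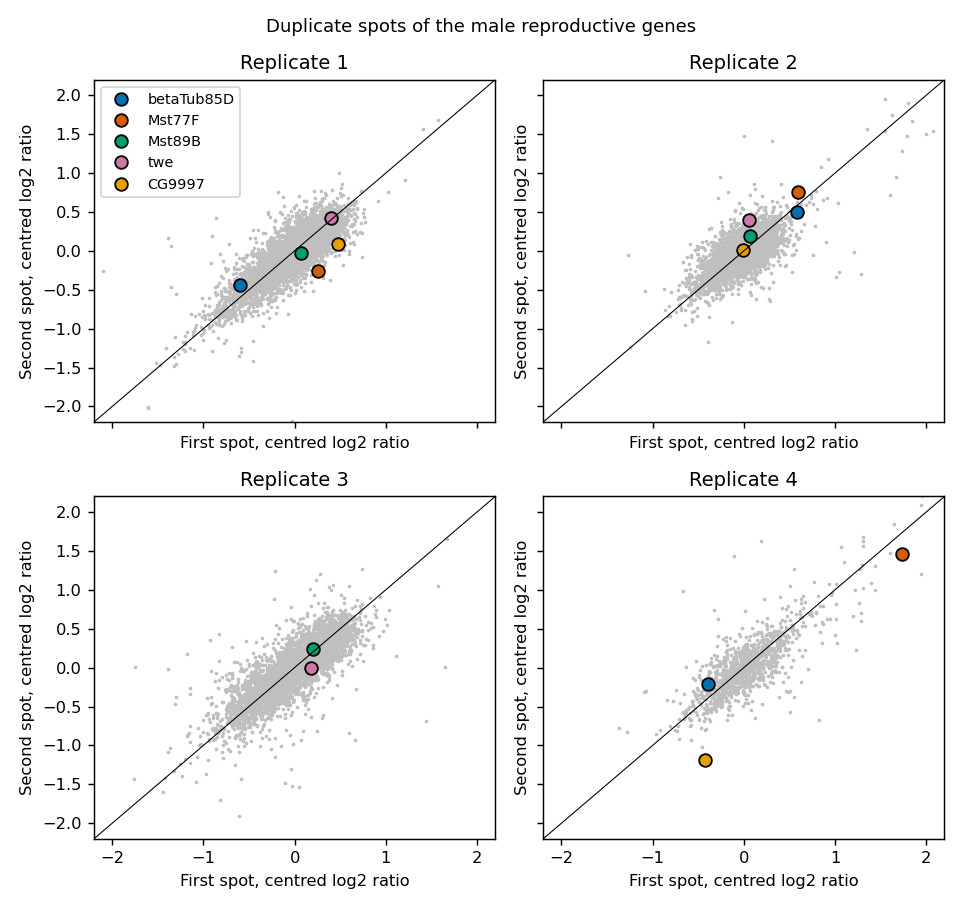
Centred log2 ratios of the first spot (horizontal) and second spot (vertical) of each clone on each array, with the line of equality, all clones in grey and the 5 genes in colour. The axes end at ±2.2, which leaves out 25 of 13519 pairs, and CG9997 has no point on replicate 3, where 1 spot was measured. The spots of Mst77F on replicate 4 are both high, and the spots of CG9997 on replicate 4 lie off the line.

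The place of a clone in the deposited table was then read as a further description. The choice of genes had not used the place, but comparisons with neighbours use the same values on which the genes were chosen. The run below was traced outward from Mst77F while clones stayed above 1 on replicate 4. The sources used here do not give the layout of the slide, so the order of the table was taken as it stands. Mst77F stood in a run of 5 consecutive clones that were all high on replicate 4, from 3 clones before it to 1 clone after it. Their centred log2 ratios ran between 1.39 and 1.60 on replicate 4, between 0.39 and 1.16 on replicate 2 and between -0.14 and 0.20 on replicate 1. None of the 5 had a value on replicate 3. The named clones of the run other than Mst77F were CG31533 and Dgkepsilon, a diacylglycerol kinase gene, which are named here after their values were seen. CG31533 read 1.16 on replicate 2 and 1.39 on replicate 4, and Dgkepsilon read 0.64 and 1.54.

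The end of the run could be seen on 1 side only, since the clones directly before it had no value. Of the next 10 clones after it, the 6 with a value lay between -0.59 and 0.16 on replicate 4 and between -0.14 and 0.22 on replicate 2. Of the 10 clones before it 1 had a value, at -0.27 on replicate 4 and -0.54 on replicate 2. Relative to the median of its 4 nearest measured clones Mst77F was at -0.11, 0.11 and 0.18 on replicates 1, 2 and 4. The excess of Mst77F on replicates 2 and 4 was thus shared by the other clones of the run, 2 of which carry other named genes. The clone directly after the run, also of a named gene and among the 4 nearest, read -0.14 on replicate 2 and 0.16 on replicate 4. A second clone of Dgkepsilon elsewhere in the table read -0.56, 0.19 and -0.05 on replicates 1 to 3, against 0.20 and 0.64 on replicates 1 and 2 for the clone beside Mst77F, so the copies of 1 gene differed by 0.45 to 0.76 where both had a value. On replicate 4, 26 of 1120 clones had a centred log2 ratio above 1, and 15 of these stood directly next to another such clone. The corresponding counts were 6 of 15 on replicate 2, 0 of 10 on replicate 3 and 0 of 3 on replicate 1. What the clones of the run share besides their place was not tested.

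CG9997 showed another arrangement. Its 4 nearest measured clones on replicate 3 stood 17 to 31 clones away and read between -0.07 and 0.24, so CG9997 exceeded their median by 2.25. Within 50 clones on either side CG9997 was the only clone above 1 on replicate 3. Within a wider reach, set after the values were seen, 6 of the 10 clones above 1 on replicate 3 lay within 80 clones of CG9997, itself included, a stretch that held 45 of the 3988 clones measured on that array. The other 5 read between 1.02 and 3.07 on replicate 3, and between -0.44 and 0.49 on replicate 1 and between -0.53 and 0.25 on replicate 2. They included CanB, SNRPG and CG42674, named here after their values were seen. A second clone of SNRPG, a core protein gene of splicing particles, read 0.47 on replicate 3, against 3.07 for the clone near CG9997. On replicate 4 CG9997 was at -0.845 relative to the median of its 4 nearest measured clones, which stood 12 to 144 clones away.

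The remaining genes departed from their neighbours by less than CG9997 did on replicates 3 and 4. betaTub85D was at -0.21, 0.73 and -0.18 relative to its 4 nearest measured clones on replicates 1, 2 and 4, so its high value on replicate 2 was not shared by them. twe was at 0.39, 0.11 and 0.28 on replicates 1 to 3, and Mst89B at -0.04, 0.11 and 0.09. Relative to their neighbours the 5 genes on replicate 2 lay between 0.05 for CG9997 and 0.73 for betaTub85D.

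Missing values also followed the order of the table. On replicate 4, 10 stretches of at least 200 consecutive clones had no value and covered 21.8% of the table, and twe and Mst89B lay together in a stretch of 654 such clones. On replicate 3 there was 1 such stretch, of 313 clones, and Mst77F lay in it. The missing values of these 3 genes were therefore shared by all clones around them. On replicate 3 betaTub85D was the last of 9 consecutive clones without a value, and the next clone had one. Replicates 1 and 2 had no stretch of at least 200 clones.

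**Figure D3:**
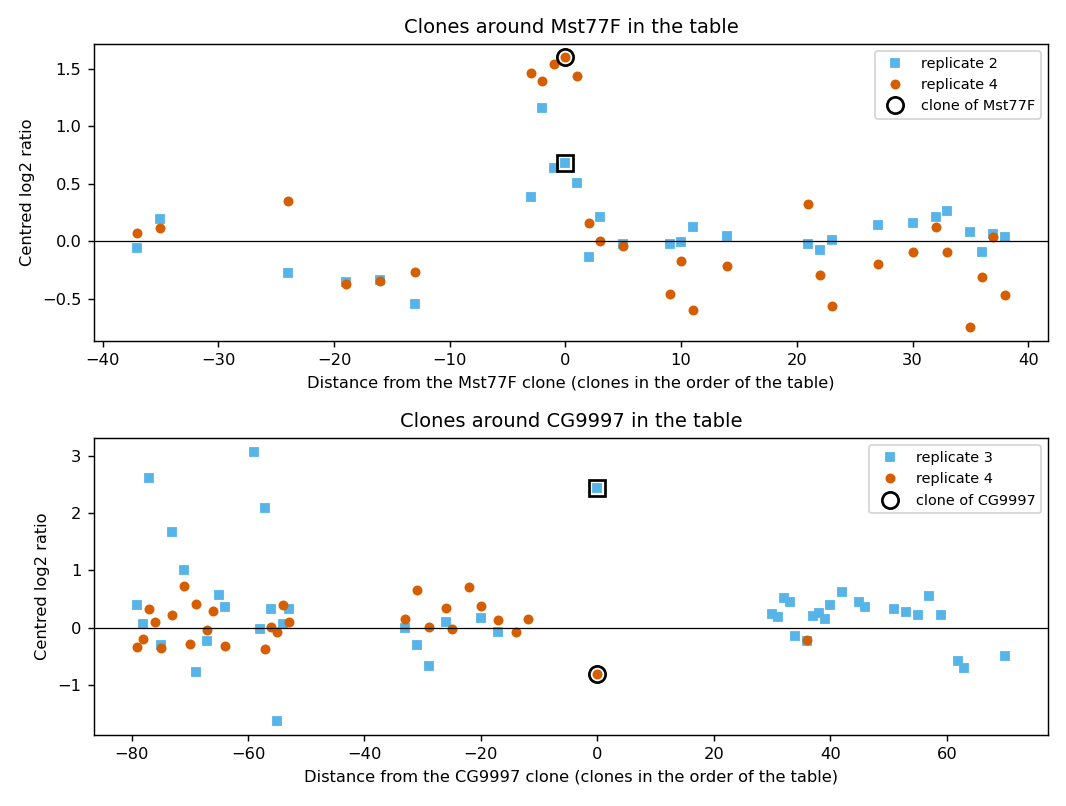
Centred log2 ratio of the clones around Mst77F (top, replicates 2 and 4) and around CG9997 (bottom, replicates 3 and 4), against distance from the clone in the order of the table. Outlined symbols mark the clone itself, and clones without a value are absent. Mst77F stands in a run of 5 clones between 1.39 and 1.60 on replicate 4, and CG9997 stands alone at 2.43 on replicate 3 among its nearest clones, with other high clones more than 50 clones before it.

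For each gene the profile most like its own was sought by the root mean square difference of centred log2 ratios over the arrays it was measured on. Mst77F was most like Dgkepsilon, at 0.188, CG31533, at 0.320, and 5-HT7, a serotonin receptor gene, at 0.379, out of 568 genes over 3 arrays, and CG31533 and 1 of the 2 clones averaged for Dgkepsilon stand beside it in the table. CG9997 was most like CG42674, at 0.530, with eEFSec at 0.878 and Ir47a at 0.912, out of 451 genes over 4 arrays. The clone of CG42674, which stood 57 clones before that of CG9997, read -0.44, -0.53, 2.08 and -0.37 on replicates 1 to 4. betaTub85D was most like CG8586, DhpD and Pur-alpha, at 0.219 to 0.279. Mst89B was most like ntc, thoc7 and brv2, at 0.0246 to 0.0270, and twe was most like CG7916, Tailor and CG10598, at 0.0360 to 0.0454, each out of 2278 genes. Values near 0 are common, and close matches to such flat profiles are easily found. These distances describe 3 or 4 arrays and carry no p-value.

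Other genes of the same organs, and of the Sex Peptide network, were read from lists chosen with earlier results of the arrays known. These lists leave out the 5 genes. Of 119 listed testis genes 44 were spotted, and 11 of these (25%) had a value on any array, against 36.8% of all genes spotted. The 33 without any value included the sperm genes Mst87F, Mst98Cb, dj, Tektin-A and klhl10 and the germline regulators bam and comr. The seminal and male duct list also holds the genes of the Sex Peptide network. Of its 90 genes 18 were spotted and 5 (27.8%) had a value. Accessory gland protein genes such as Acp36DE, Acp32CD and Acp53Ea were among those without one. Of 10 genes of the Sex Peptide network, to which CG9997 belongs, 4 were spotted (CG17575, frma, hdly and intr) and 0 had a value. These 4 are counted among those 18. Of 3 spotted cell cycle genes that act with or on Cdc25 phosphatases (Cdk2, CycB and aurB) 0 had a value.

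Over the 9 testis genes on at least 3 arrays the median centred log2 ratio was 0.13, -0.06 and 0.04 on replicates 1 to 3, against -0.01, -0.0023 and -0.0060 for all genes. The number above the array median was 7, 3 and 5 of 9. Rpt4R, a testis form of a proteasome subunit, was the highest, with 0.14, 0.55 and 0.32 and a mean of 0.34 ± 0.21 (SD, n = 3). schuy, transcribed late in sperm formation, read 0.21, 0.03 and 0.30, and Tim17a2 read 0.22, -0.05 and 0.21. On the low side topi, a zinc finger regulator of meiotic transcription, read -0.15, -0.39 and -0.19, and Tektin-C, a sperm tail filament gene, read -0.22, -0.06 and -0.08. boly, ocn, mip40 and gudu had means between -0.15 and 0.02 and changed side between arrays. On replicate 2, where all 5 of the chosen genes were above the median, 3 of these 9 genes were.

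None of these 9 genes had a value on replicate 4. The only testis genes measured there were tbrd-2, a bromodomain gene, at 0.91 and zpg, a germline gap junction gene, at -0.09, which had no value on the other arrays. betaTub60D, the single other tubulin gene of the list with a value, read -0.05, 0.17, 0.34 and 0.19 on replicates 1 to 4, and betaTub56D, the common beta-tubulin gene, was spotted without a value.

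The 5 seminal and male duct genes with values had medians of -0.17, -0.01 and 0.11 on replicates 1 to 3, and 2 of them had a median of -0.05 on replicate 4. Ance, a peptidase gene, read -1.24, -0.63, 0.19 and -0.05. Obp56g, an odorant-binding protein gene of the ejaculatory bulb, had 2 clones, which read -0.30, -0.12 and -0.61 and, at the second, -0.03, 0.10 and -1.60 on replicates 1 to 3. Gld, a glucose dehydrogenase gene of the male ducts, read -0.04, -0.06 and 0.19. CG11598 and Spn38F, a serpin gene, stayed between -0.28 and 0.17. On replicate 3, where CG9997 was at 2.43, the seminal genes lay between -1.10 and 0.19. The lower end is the mean of the 2 clones of Obp56g, of which the second read -1.60.

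**Figure D4:**
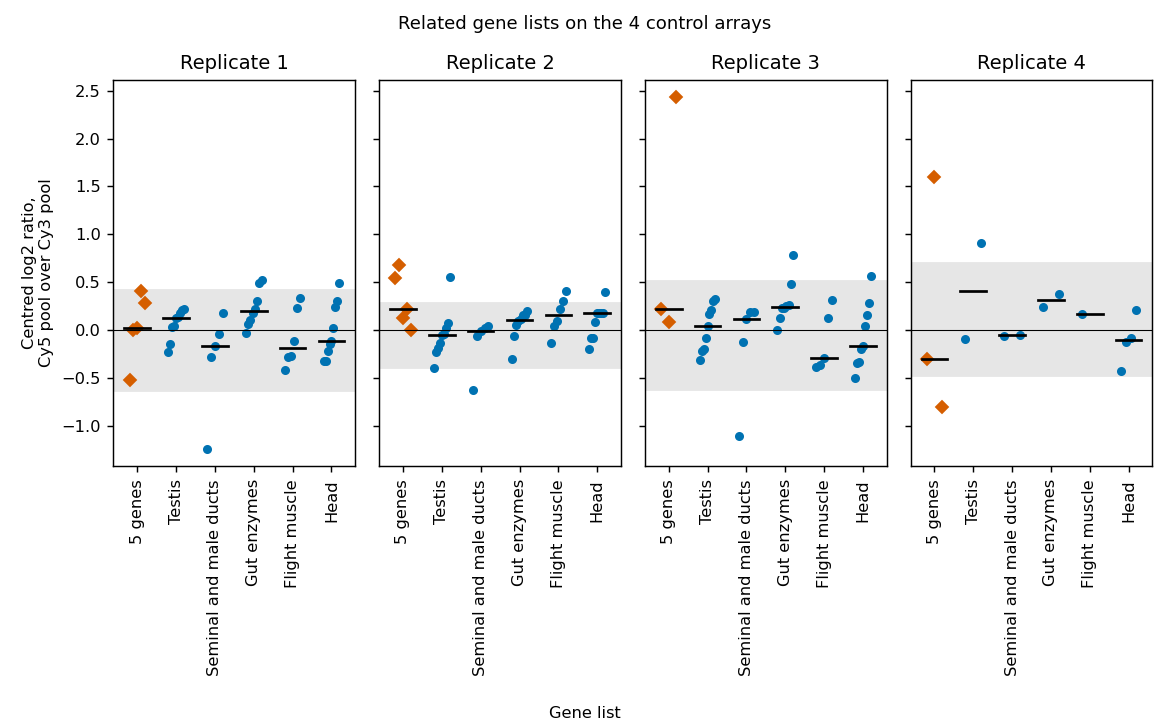
Centred log2 ratio per gene on each array for the 5 male reproductive genes (diamonds) and for genes of 5 related lists (circles), with the median of each list as a black bar and the 5th to 95th percentile of all clones in grey. The 5 genes reach 2.43 on replicate 3 and 1.60 on replicate 4, and no testis gene of the list reaches 1 on any array.

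The ratio of each clone was tested against 0 across the arrays with limma, with Benjamini-Hochberg adjustment over all 4208 clones on at least 3 arrays. The test called 0 of 4208 clones (0% called), while 1272 (30.2%) had an unadjusted p under 0.05. It called 0 of 9 testis genes and 0 of 5 seminal genes. The lowest limma adjusted p was 0.107 for Rpt4R among testis genes and 0.116 for 1 clone of Obp56g among seminal genes. At an unadjusted p under 0.05 there were 2 of 9 testis genes, Rpt4R and topi, in opposite directions. The seminal genes had 1 of 6 clones there, against the 30.2% of all clones. Without replicate 4 the number called was 374 of 3976 (9.41% called), and 0 of these were on the testis or seminal lists. Subtraction of a local median called 2 clones (0.0475% called), clones on 2 or more arrays gave 1 call (0.0237% called), and the values as deposited without replicate 4 gave 807 (20.3% called). Of the 9 testis genes and the 6 seminal clones, those 807 held Rpt4R as higher and Ance as lower. These p-values measure the spread between the arrays on which a clone had a value, and 726 of the 4208 clones had a value on all 4. The 9 testis genes had no value on replicate 4, so their p-values rest on replicates 1 to 3. A signed mean over the arrays depends on dye orientation.

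Markers of other tissues give the range against which the 5 genes can be read. Digestive enzyme genes of the gut had a value for 8 of 30 spotted (26.7%), with medians of 0.20, 0.10, 0.24 and 0.31 on replicates 1 to 4, 8 of 8 had a mean above 0, against 1169 of 2406 of all genes, and 0 of 8 were called. As deposited without replicate 4 the calls were 3 of 8, all higher. In that setting 12.2% of all 3976 clones were called higher and 8.1% lower, and 1 of 9 head markers was called higher. Each of these directions rests on the dye orientation as labelled. Mal-A2, a maltase gene, was the highest of the gut genes at 0.47 ± 0.35 (SD, n = 3). Flight muscle genes had a value for 6 of 8 spotted (75%), with medians of -0.19, 0.16, -0.29 and 0.16, and 1 of them was measured on replicate 4. Of the female germline genes 1 of 5 spotted had a value, png at 0.0060 on replicate 4. Fat body and yolk genes had a value for 5 of 10 spotted (50%), with medians of -0.05, 0.13, 0.09 and 0.51, the last over 3 genes. Their highest were the yolk protein genes Yp3, made in females mainly by the fat body, with 1.49, 0.34, 1.31 and 2.08, and Yp2, with 0.89, 0.30 and 0.36 on replicates 1 to 3. Their lowest were Cyp4d21, with -1.08, -0.05, -0.91 and 0.51, and apolpp, with a mean of -0.07 ± 0.14 (SD, n = 4). Of this list 0 clones were called over all arrays. Without replicate 4, where 9.41% of all clones were called, limma called Yp2 and Yp3 as higher and Cyp4d21 as lower. Head markers had a value for 10 of 17 spotted genes (58.8%), with medians of -0.11, 0.18, -0.16 and -0.10. st and inaD, which act in eye pigment transport and phototransduction, had their highest means, at 0.38 and 0.24, and Gad1 and Sh, which act in GABA synthesis and as a potassium channel, their lowest, at -0.25 and -0.22. In pooled heads a difference in the number of cells of a type cannot be told apart from one in RNA per cell, and the part of any of these tissues in the values of the 5 genes was not tested.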

How the data were processed

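RNA from pooled heads of untreated males was amplified, labelled and hybridized by the authors on 4 two-colour CDMC cDNA slides, which were quantified with GenePix Pro and normalized per slide in Acuity (ratio-based). Spots that were saturated, marked bad, uneven or near background were removed by the authors. The deposited values are log2 ratios, Cy5 over Cy3, with 0 value columns left out here. Scanner intensities were not used here, and the number of arrays limits the precision. All 4 arrays form 1 group, with a shorter vessel time labelled for the Cy3 pool of replicate 1.

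Adjacent duplicate spots were averaged (of 7609 pairs named on both spots, 0 carried different names), and each array's median over clones with values on at least 3 arrays was subtracted. Genes were named through the platform annotation, and Entrez identifiers gave a current symbol for 97.9% of 15218 probes. limma (version 3.58.1, R 4.3.3) tested 4208 clones against 0, two-sided, at an adjusted p of 0.05, and was tested on simulated data. The members and lists were chosen with earlier results of these data known. Named genes were the 5 genes, the measured genes of the testis, seminal, tubulin and twe lists, at most the 2 highest and 2 lowest genes of each tissue list, and the 3 closest profiles per gene. Alternatives were the values as deposited, a local median of 49 spots, single spots, other array minimums, each array left out and the signs of pairs of arrays turned. Subtraction of the 4 nearest clones, and the values as deposited without replicate 4, were added after the data were seen.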

Additional observations from a re-analysis of the deposited data

Results flagged for a closer look

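Replicate 4 stood apart from the other arrays in 2 of 22 sets of 4 values examined, where chance marks about 1 set in 20. It had 2240 spots with a value, against 7966 to 8429 on the others. Its median log2 ratio as deposited was -0.70, against 0.00050 to 0.14. The high value of Mst77F and the low value of CG9997 on this array are centred values, and the reason for the difference between arrays was not tested.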

How the results depend on the processing

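The counts of the 5 genes above the array median stayed within 1.5 times in 12 of 12 alternatives, and on replicate 1 the count was 4 as deposited and 2 after subtraction of the nearest clones. The values of single genes moved beyond their spread in 8 of 95, among them Mst77F on replicate 4, at 0.18 once the median of its 4 nearest clones was subtracted, and their means in 5 of 46. With the signs of replicates 2 and 4 turned the mean of Mst77F was -0.76, and it was -0.31 with those of replicates 3 and 4 turned. That of Mst89B was -0.11 with replicates 2 and 3 turned and -0.02 with replicates 3 and 4 turned, and that of twe was 0.03 with replicates 2 and 3 turned. The mean of CG9997 also changed sign, to -0.74 with replicates 2 and 3 turned and -0.33 with replicates 3 and 4 turned. That of betaTub85D was -0.46 and 0.11 in these settings. Neither counted as moved, because the yardstick was the gene's own SD between arrays, 1.38 for CG9997 and 0.56 for betaTub85D. The limma calls over all clones numbered 2 after local median subtraction, 1 with clones on 2 or more arrays and 0 to 374 when each array was left out. They numbered 0 with the signs of replicates 2 and 3, 2 and 4, or 3 and 4 turned. An unadjusted limma p under 0.05 was then found for 12, 204 and 17 clones, against 1272 as labelled. As deposited and without replicate 4 there were 807 calls (20.3% of all clones). Among them were 1 of 9 testis genes (Rpt4R, higher) and 1 of 6 seminal clones (Ance, lower). List calls could not be computed for testis genes without replicate 1, 2 or 3, nor on all 4 arrays. As deposited the testis median on replicate 4 was -0.29 and the seminal medians on replicates 1 and 4 were -0.0245 and -0.75. Taken over clones the seminal median on replicate 3 was -0.0075. The cause was not tested where it does not follow from the array medians. No paired analysis was possible because there was 1 group.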
